A study of Homo sapiens with 8 samples.

Results

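The open chromatin of untreated H1650, a line of human non-small cell lung cancer cells, was described from the 2 ATAC-seq peak lists of that group. In ATAC-seq a transposase inserts adapters where DNA is accessible, and the inserted fragments are sequenced and piled up along the genome. The distinct peak intervals of both lists were joined wherever they overlapped or touched, which gave 39043 regions. Of these, 17444 regions (44.7%) were listed in both replicates and are described here. Another 17117 were listed in replicate 1 only and 4482 in replicate 2 only. The merged intervals of all 8 libraries of the series form 46665 regions.

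The series sets untreated cells beside cells in which hMENA, a regulator of the actin cytoskeleton, or its epithelial isoform hMENA11a was targeted. Untreated cells grew in RPMI 1640 with 10% fetal bovine serum and received no siRNA. The 6 other libraries came from cells transfected with siRNA at 20 nmol/L, 2 each with a non-targeting control pool (siControl), siRNAs against the 11a exon (siMena11a) or a pool against hMENA (siMena). Their lists were used to see where untreated regions recurred. They also entered the merged regions of the series, the chromosome spans and windows behind the densities, and the counts inside long gaps. All libraries come from this 1 line. Nothing in the labels says whether the replicates were separate cultures, so their spread may be technical. Gene positions of the build used by the lists, hg19, were not used here, so no region was tied to a gene and the epithelial origin of the line was not checked against its markers.

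Accessible regions of this kind are typically promoters, enhancers and insulator sites, where bound factors displace nucleosomes over a short stretch of DNA. Promoters of active genes and insulator sites tend to be open in most cells, while enhancers carry much of what is particular to a cell type. A peak list records where the pileup of tags rose above its surroundings, and how far, at 1 or more summits per interval. The fold given below is the authors' ratio of the pileup at a summit to the local background, with 1 added to each, and the fold of a region is that of its strongest summit in a list.

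The untreated lists differed in length and depth. Replicate 1 held 40754 summits in 34782 intervals covering 14.4 Mb, and replicate 2 held 26076 summits in 22424 intervals covering 9.02 Mb. Median interval widths were close, 349 bp in replicate 1 and 348 bp in replicate 2. The genome-wide background, a measure of depth recovered from the deposited values, was 0.538 tags per position in replicate 1 and 1.09 in replicate 2. The deeper library thus gave the shorter list. At this background the weakest listed summit held 5 tags (a fold of 3.90) in replicate 1 and 7 tags (a fold of 3.83) in replicate 2.

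The regions listed in both replicates made up most of the shorter list and about as many regions of the longer list as were missing from the other. They held 79.6% of the 21926 regions of replicate 2 (95% exact Clopper-Pearson interval 79.0 to 80.1%), and 50.5% of the 34561 regions of replicate 1 (49.9 to 51.0%). In 16747 of them (96.0%) each list contributed a single interval. The intervals of the lists shared a median of 339 bp, and the shared stretch had a median of 81.2% of the replicate 1 width and 96.9% of the replicate 2 width. Few regions sat at the edge of this definition. In 1 region the lists only touched and in 41 they shared 1 to 50 bp, while 70 regions of replicate 1 alone and 54 of replicate 2 alone lay within 50 bp of an interval of the other list. Where the lists shared 1 to 50 bp, the median fold was 5.98 in replicate 1 and 4.76 in replicate 2, against 8.28 and 6.42 where they shared more.

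Regions listed in both replicates were broad. Their merged width had a median of 536 bp, with the middle 50% between 395 and 700 bp, and the widest reached 2602 bp. Regions listed once had medians of 274 bp in replicate 1 and 265 bp in replicate 2. A merged region grows with the lists that hold it, but the width within a single list differed too: both-listed regions had a median of 485 bp in replicate 1 and 395 bp in replicate 2. Only 753 both-listed regions (4.32%) had a merged width over 1000 bp, and 5 had one over 2000 bp. Within a region, the replicate 1 intervals were wider in 11829 cases (67.8%) and the replicate 2 intervals in 5508 (31.6%). Listing in both lists itself went with width. Of replicate 1 intervals, 15.1% of the narrowest of 10 equal sets by width and 93.6% of the widest were listed in replicate 2. The classes thus favour wide both-listed regions by their definition. These contrasts describe the lists and carry no test.

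**Figure D1:**
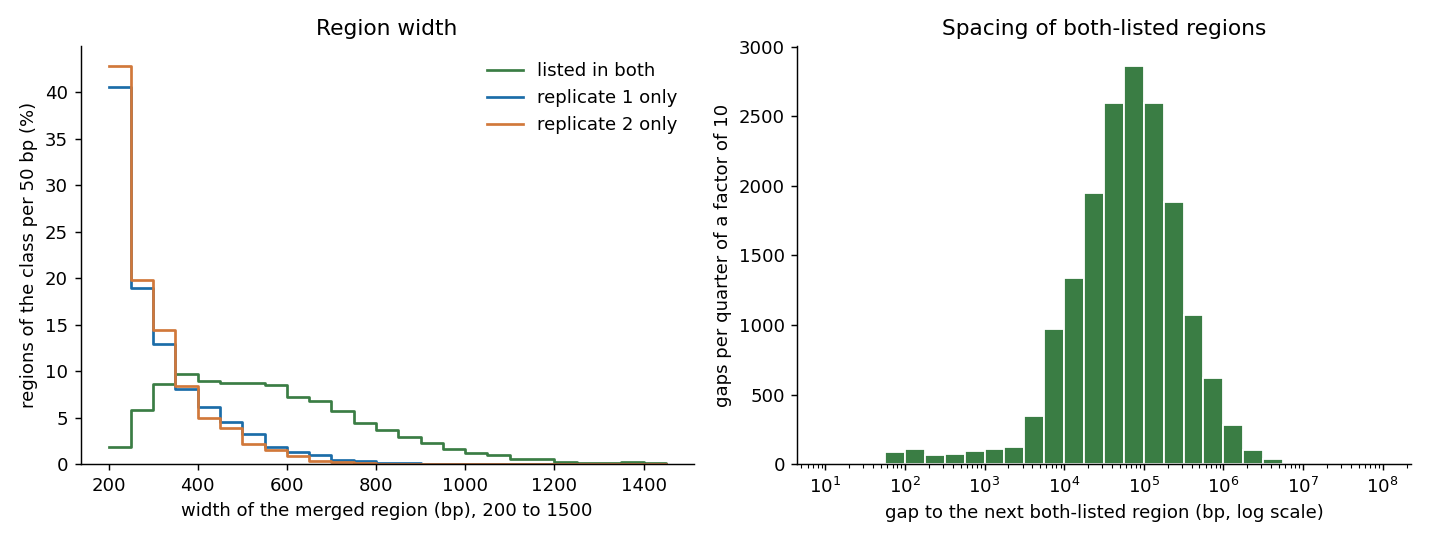
The left panel plots the width of merged regions in bp against the percentage of each class per 50 bp, for regions listed in both replicates, in replicate 1 only and in replicate 2 only. Once-listed regions pile up at the narrow end, with medians of 274 and 265 bp, while both-listed regions spread around 536 bp. The right panel plots the number of gaps between neighbouring both-listed regions against gap length on a log scale, with a median of 66029 bp and few gaps of 500 bp or less.

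Most both-listed regions had a single summit. Replicate 1 placed 1 summit in 12882 of them (73.8%), 2 summits in 3905 (22.4%), 3 in 589 (3.38%) and 4 to 6 in the others. Replicate 2 placed 1 summit in 13899 (79.7%), 2 in 3168 (18.2%) and 3 in 334 (1.91%). The number was the same in both lists for 13522 regions (77.5%), and 2330 regions (13.4%) had several summits in both. The distance between neighbouring summits of 1 interval was taken over all intervals of each list, once-listed ones included. Its median was 307 bp in replicate 1 (n = 5972 pairs) and 308 bp in replicate 2 (n = 3652 pairs). This spacing was close between the libraries, with the middle 50% at 266 to 357 bp and 265 to 354 bp.

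The position of the strongest summit differed little between the lists. The strongest summits of the lists lay a median of 34 bp apart. They were within 50 bp of each other in 62.9% of both-listed regions, within 100 bp in 81.2%, and over 200 bp apart in 9.26%. Among the 100 regions strongest by fold in both lists the median distance was 8 bp, against 34 bp over all. Regions with several summits in both lists had a median distance of 35 bp, against 33 bp for regions with a single summit in both.

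The fold was higher in replicate 1 than in replicate 2 at 13659 both-listed regions (78.3%). Its median was 8.28 in replicate 1, with the middle 50% from 6.53 to 10.2, and 6.42 in replicate 2, with the middle 50% from 5.26 to 8.01. The strongest summits held a median of 21 tags in replicate 1 and 19 in replicate 2, over local backgrounds of 1.62 and 2.2 tags. The median ratio of replicate 2 to replicate 1 was 0.797, and the SD of the log2 ratio was 0.43 (n = 17444 regions). Counting error alone gives an SD of 0.46 on the log2 scale at the median region, from the tags at the summits. These SDs cannot be set against each other as a test: every region had to be called in both lists, which bears on the observed spread, and the counting SD takes tags as independent although the treatment of duplicates is not known.

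**Figure D2:**
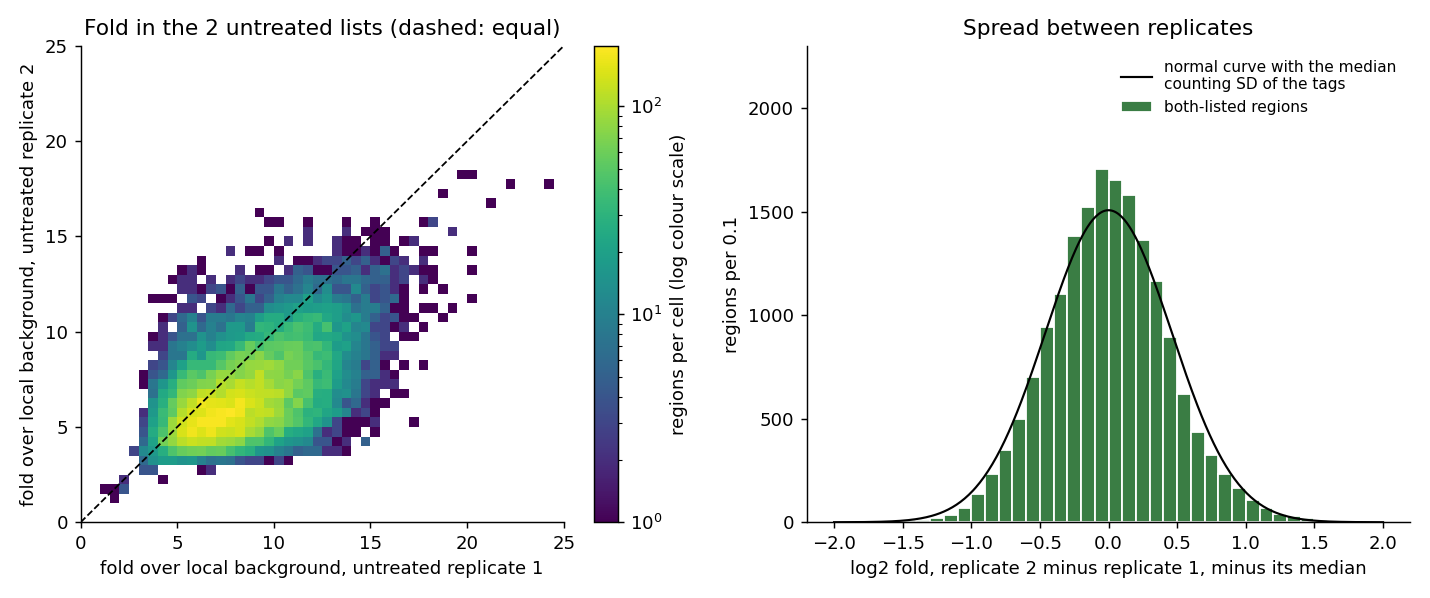
The left panel plots the fold of each both-listed region in replicate 1 (x axis) against replicate 2 (y axis), with the number of regions per cell as colour on a log scale and a dashed line of equality. Most regions lie below the line, with medians of 8.28 in replicate 1 and 6.42 in replicate 2. The right panel plots the log2 fold of replicate 2 minus replicate 1 after subtraction of its median, with a normal curve whose SD is the median counting SD of 0.46.

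Across the 17444 both-listed regions the log2 folds of the replicates correlated with Pearson r = 0.51 and Spearman rho = 0.49. These values describe regions that share 2 libraries and their depth, and regions are not independent replicates. The number of tags at the summit ranked more alike (rho = 0.63), as did the width (rho = 0.60), and the local background ranked most alike (rho = 0.79). When both-listed regions were ordered by replicate 1 fold and divided into 10 equal sets, the median replicate 2 fold was 5.26 in the weakest set, 6.07 in the fifth and 9.16 in the strongest, where the replicate 1 medians were 4.82, 7.92 and 13.1. Width rose with strength in each set up to the eighth and was level above it. The median width was 398 bp in the weakest set, 617 bp in the eighth, 614 bp in the ninth and 617 bp in the strongest.

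The strongest sites on the assembled chromosomes were ranked by the lower of their fold percentiles within the lists. The first, 362 bp long, was on chromosome 3 between 68708118 and 68708479 (hg19), and its folds were 20.4 in replicate 1 and 18.1 in replicate 2. Its summit held 56 and 55 tags, and the summit positions differed by 3 bp. A region of 506 bp on chromosome 21 from 47604257 to 47604762 followed, with folds of 22.4 and 17.9. It had the highest significance in the replicate 1 list, a −log10 q of 129, from 131 tags, and reached 88.1 from 99 tags in replicate 2. The highest fold of replicate 1, 24.2, belonged to a region of 261 bp on chromosome 9 (83180524 to 83180784), which had 17.9 in replicate 2 and summits 1 bp apart. The highest fold of replicate 2, 18.3, belonged to a region of 319 bp on chromosome 2 (50816231 to 50816549), which had 19.7 in replicate 1. A second region on chromosome 2, from 203478903 to 203479187, had folds of 21.1 and 16.9.

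The other 5 of the 10 strongest were a region of 279 bp on chromosome 8 (20408718 to 20408996), one of 856 bp on chromosome 4 (141444952 to 141445807), a pair on chromosome 1 of 272 bp (169443219 to 169443490) and 373 bp (77436823 to 77437195), and one of 662 bp on chromosome X (130036906 to 130037567). Their folds ran from 17.7 to 18.7 in replicate 1 and from 15.6 to 17.2 in replicate 2. All 10 had 1 summit in replicate 1, and 9 had 1 summit in replicate 2, the exception being the region on chromosome 4 with 2. Of the 10, 8 were narrower than the median of all both-listed regions, and their strongest summits differed by 1 to 23 bp between the lists. The transfected libraries listed 8 of them in all 6 lists and the regions on chromosomes 4 and X in 5.

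Ranking by significance picked other sites. Only the region on chromosome 21 was among the 10 strongest by both measures. Of the 100 strongest by each, 38 were shared, and of the 1000 strongest, 671. After that region, the highest by −log10 q, chosen after their values were seen, had values of 98.1 on chromosome 8 (110345802 to 110347021), 92.5 on chromosome 11 (105892584 to 105893519), 91.1 on chromosome 7 (38217359 to 38218477) and 93.9 on chromosome 5 (41903931 to 41904748) in replicate 1. They were 818 to 1220 bp wide, with 111 to 136 tags at the summit in replicate 1 and 93 to 117 in replicate 2. The 100 strongest by −log10 q had a median width of 819 bp over local backgrounds of 5.00 tags in replicate 1 and 5.32 in replicate 2, while the 100 strongest by fold had a median width of 609.5 bp over 2.34 and 2.83 tags. Several summits in both lists were found in 31.0% of those strongest by −log10 q and in 11.0% of those strongest by fold.

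The 5 regions of largest merged width on the assembled chromosomes lay over a high local background in both lists, and all 5 had low folds in replicate 2. Neither list alone gave these widths. Within the lists the 5 were 1158 to 1588 bp wide in replicate 1 and 1632 to 1758 bp in replicate 2. The widest after merging, 2602 bp on chromosome 12 (120728401 to 120731002), was 1158 bp in replicate 1 and 1632 bp in replicate 2. It reached folds of 5.41 in replicate 1 and 3.76 in replicate 2. Next in width came 2488 bp (16991405 to 16993892) and 2193 bp (17222120 to 17224312) on chromosome 1, then 2099 bp (35023440 to 35025538) and 1967 bp (35015900 to 35017866) on chromosome 14. Those on chromosome 14 lay within 10 kb of each other. Over the 5 regions the fold ran from 5.41 to 8.66 in replicate 1, on both sides of the both-listed median of 8.28, and from 3.49 to 4.80 in replicate 2, all below its median of 6.42. Their local backgrounds were 5.28 to 8.24 tags in replicate 1 and 6.72 to 12.8 in replicate 2, against medians of 1.62 and 2.2 over all both-listed regions. Over all both-listed regions, 2 had 6 summits in replicate 1 and 1 had 6 in replicate 2. On the assembled chromosomes, 6 summits in either list were found in 2 regions. The region on chromosome 1 from 17222120 had 4 summits in replicate 1 and 6 in replicate 2. One of 1573 bp on chromosome 9 (91148875 to 91150447) had 6 in replicate 1 and 4 in replicate 2.

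Open regions were unevenly spread along the genome. On the assembled chromosomes, the gap from a both-listed region to the next had a median of 66029 bp, with the middle 50% from 24308 to 163602 bp and a mean of 172405 bp (n = 17353 gaps). Gaps of 1000 bp or less were rare, 450 in all (2.59%), and 903 gaps (5.20%) were of 5000 bp or less. Gaps of up to 100000 bp made up 61.9%, and 427 gaps (2.46%) were longer than 1000000 bp. Of both-listed regions, 21.5% had another within 10000 bp. Of regions in replicate 1 only, 19.3% had a both-listed region within that distance, and of regions in replicate 2 only, 27.3%. The 3 longest gaps were 56.7 Mb on chromosome Y (2477527 to 59213708), 21.6 Mb on chromosome 1 (121261528 to 142890615) and 18.7 Mb on chromosome 9 (46844068 to 65576490). Those on chromosomes 1 and 9 include the centromere, and each held 3 regions of the 8 lists together. The gap on chromosome Y held 16 regions of the 8 lists.

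Both-listed regions covered 9.93 Mb, and those on the assembled chromosomes 0.329% of the distance between the first and last listed base of each chromosome. Another 67 regions lay on 24 contigs that are not placed in the assembled chromosomes. Of 2832 windows of 1 Mb with a peak in any of the 8 lists, 260 (9.18%) held no both-listed region and the median window held 5. The densest 283 windows held 26.4% of the regions, and 660 windows held 50% of them. The fullest window was on chromosome 19 from 58000001 to 59000000, with 30 regions, median folds of 9.97 in replicate 1 and 5.52 in replicate 2. It was followed by windows on chromosome 2 from 85000001 to 86000000 with 27 regions and from 9000001 to 10000000 with 26. Windows on chromosome 16 from 67000001 and from 75000001 held 25 regions each. Over all windows, the number of both-listed regions ranked with that of replicate 1 only regions (rho = 0.65) and of replicate 2 only regions (rho = 0.50), as a description across windows of the same libraries.

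Chromosome 19, known as the most gene-dense human chromosome, had the most both-listed regions for its length, 9.57 per Mb. Chromosome 16 followed with 7.62 and chromosome 20 with 7.56, and chromosomes 15 and 7 stood close behind with 7.45 and 7.37. Chromosome Y had 5 regions in all (0.0844 per Mb), chromosome 13 had 2.77 per Mb and chromosome X 3.05. Chromosomes 13 and 18, with 3.36 per Mb, are known to be gene-poor. Chromosomes 1 to 22 and X together had 5.89 per Mb. The order was largely shared by the lists: chromosome 19 had 21.1 regions per Mb in replicate 1 and 10.5 in replicate 2, and chromosome 13 had 5.66 and 3.81. Over the 23 chromosomes, the densities of the lists ranked alike (rho = 0.86, as a description). With the threshold set at a −log10 q of 5, chromosome 7 had 6.26 per Mb and stood second, ahead of chromosomes 20 and 16 with 6.14 and 6.10.

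The local background moved with these densities. Its median at both-listed regions was 1.92 tags on chromosome 20, 1.94 on chromosome 16 and 1.98 on chromosome 7 in replicate 1, and 3.02, 2.98 and 2.64 in replicate 2. On chromosome 13 it was 1.14 in replicate 1 and 1.38 in replicate 2, and on chromosome X 1.16 and 1.28. The chromosomes' densities and local backgrounds ranked together with rho = 0.64 in replicate 1 and rho = 0.70 in replicate 2. A chromosome with more copies gives more tags and more callable peaks, so density per Mb and copy number cannot be told apart from these lists. Chromosome 19 had the highest density with a background of 1.58 in replicate 1, below the 1.62 of all both-listed regions, and 2.54 in replicate 2, above the 2.2 of all.

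**Figure D3:**
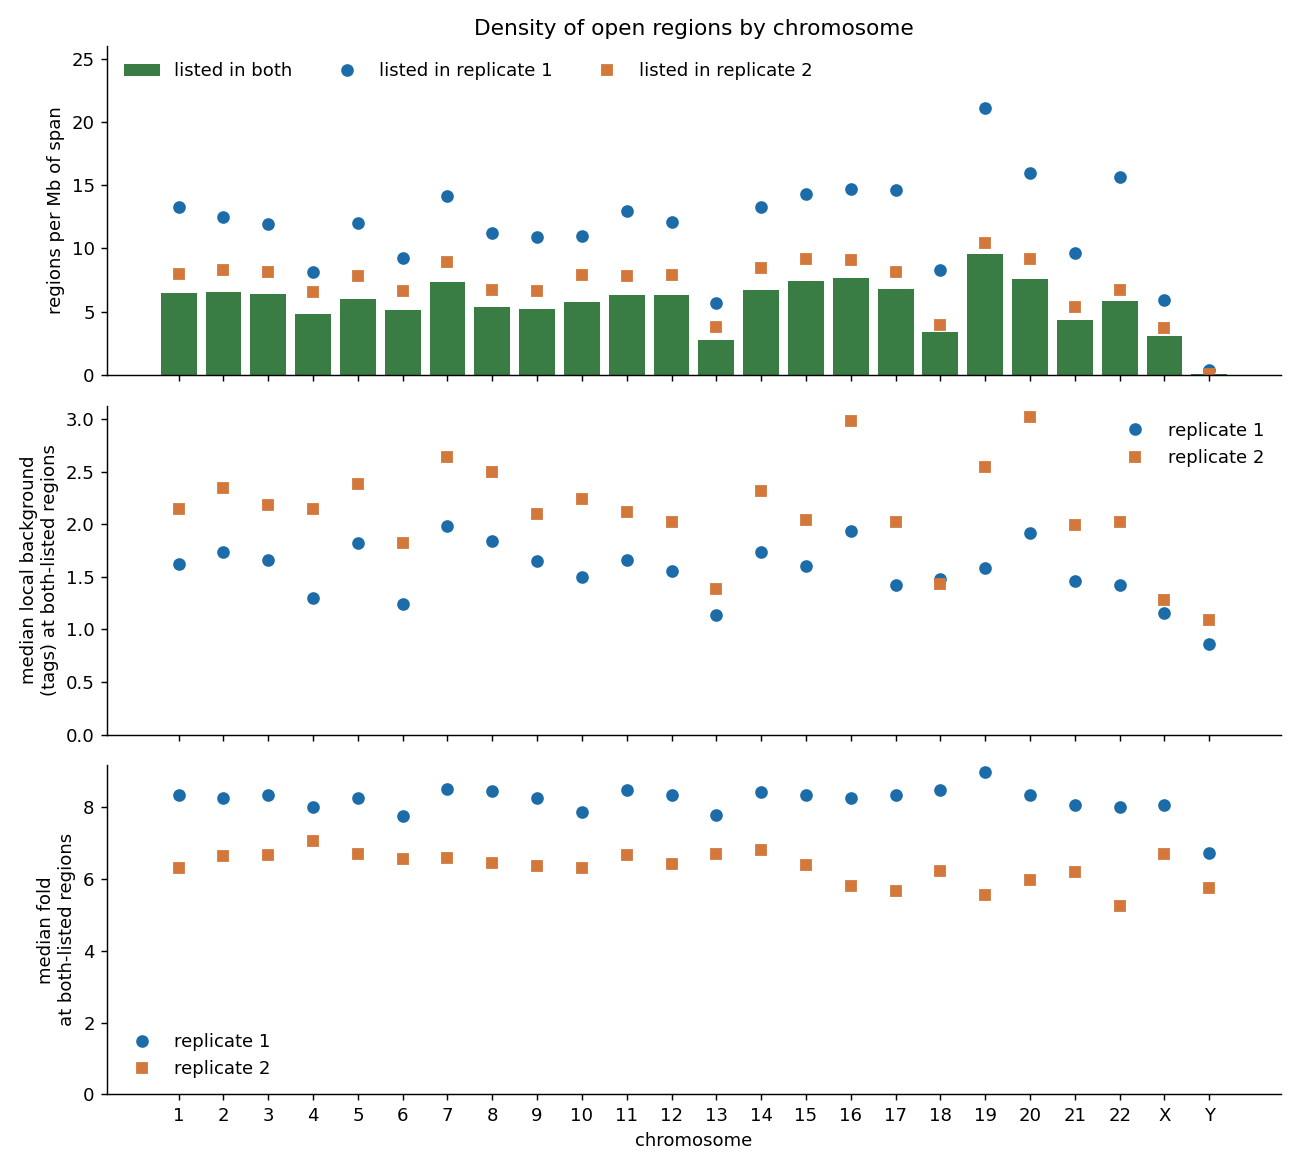
The top panel plots regions per Mb of span for each chromosome, with bars for regions listed in both replicates and points for each list. The middle panel plots the median local background in tags, and the bottom panel the median fold, at both-listed regions in each replicate. Chromosome 19 has the tallest bar at 9.57 and the widest separation of the fold medians, 8.99 in replicate 1 and 5.56 in replicate 2.

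The drop in fold between the replicates was not the same on every chromosome. The median log2 ratio of replicate 2 to replicate 1 was -0.33 over all both-listed regions. It was -0.66 on chromosome 19, -0.58 on chromosome 22, -0.52 on chromosome 17, -0.49 on chromosome 16 and -0.48 on chromosome 20. On chromosome 4 it was -0.18, on chromosome 13 -0.22 and on chromosome X -0.23. The median fold on chromosome 19 was the highest of all chromosomes in replicate 1, 8.99, and the second lowest in replicate 2, 5.56, above only the 5.26 of chromosome 22. Over the 23 chromosomes other than Y, the median folds of the lists ranked with rho = -0.13. The lists thus ranked the chromosomes alike by density and not by fold. The share of replicate 2 regions also listed in replicate 1 was 91.4% on chromosome 19 and 73.2% on chromosome 4. In the other direction it was 45.3% on chromosome 19 and 58.9% on chromosome 4, the highest of all.

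Strength within a list went with listing in the other replicate. The intervals of replicate 1 were divided by fold into 10 equal sets of about 3478, and 23.7% (95% exact Clopper-Pearson interval 22.3 to 25.2%) of the weakest set overlapped an interval of replicate 2. The share was 39.1% in the fifth set, 59.2% in the seventh and 92.9% (92.0 to 93.8%) in the strongest. For replicate 2, with sets of about 2242, it was 67.8% (65.8 to 69.7%) in the weakest, 76.7% in the fifth and 94.7% (93.7 to 95.6%) in the strongest set. The share was higher in each set than in the one below it, in both lists. These intervals cover counting error over peaks of 1 library only. Over whole lists, 50.8% of replicate 1 intervals and 80.0% of replicate 2 intervals were listed in the other.

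**Figure D4:**
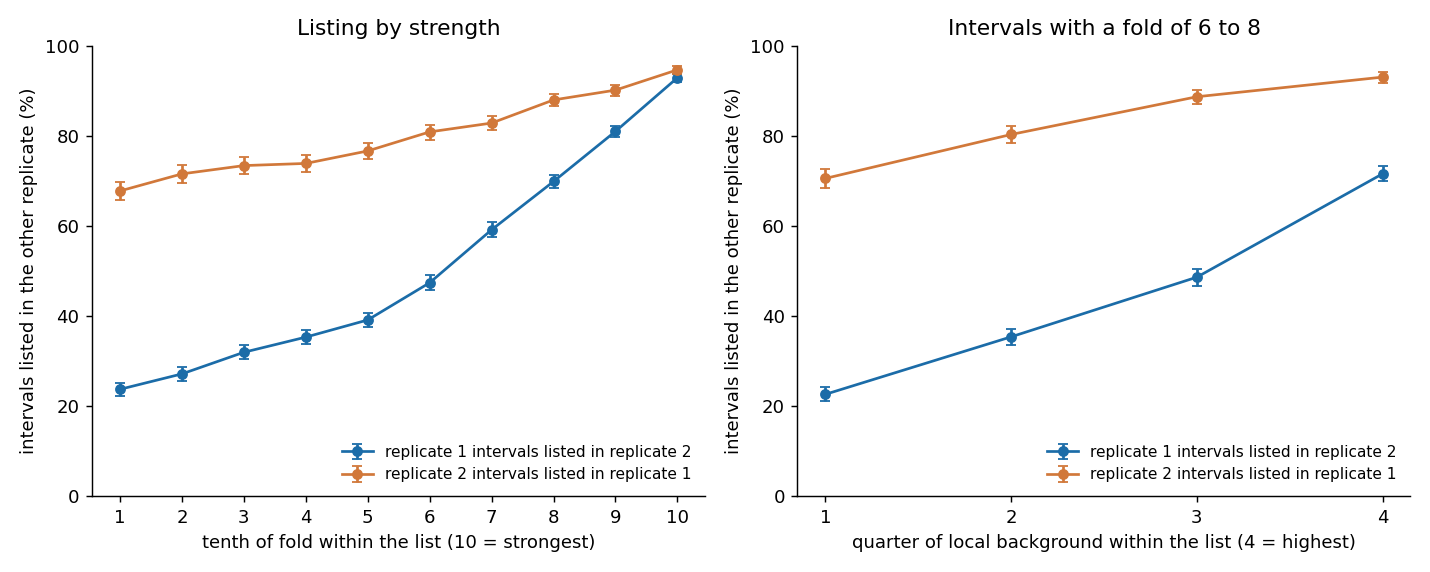
The left panel plots the percentage of intervals listed in the other replicate against the set of fold within the list, from 1 (weakest) to 10 (strongest), for both directions. The right panel plots the same percentage for intervals with a fold of 6 to 8 against 4 equal sets by local background within the list, and bars are 95% exact intervals. The lines meet near 93 to 95% for the strongest set and lie far apart, 23.7% and 67.8%, for the weakest.

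On the scale of the fold itself, 51.7% of replicate 1 intervals with a fold of 7 to 8 were listed in replicate 2, 76.9% at 9 to 10 and 90.4% at 11 to 12. Of 215 replicate 1 intervals with a fold of 15 or more, 213 were listed in replicate 2 (99.1%). Replicate 2 intervals with a fold of 7 to 8 were listed in replicate 1 in 86.8% of cases, those at 9 to 10 in 92.2%, and all 25 with a fold of 15 or more. The order of the strongest sites was much less shared than their presence. Of the 1000 strongest replicate 1 intervals, 964 overlapped some interval of replicate 2, but 358 overlapped one of the 1000 strongest there. Of the 100 strongest, 99 were listed in replicate 2 and 28 among its 100 strongest.

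Tags at the summit went with listing better than the fold did. The area under the curve for listing in replicate 2, which is 0.5 for no relation and 1 for perfect ranking, was 0.756 for fold, 0.792 for width, 0.800 for −log10 q and 0.810 for tags. For listing of replicate 2 intervals in replicate 1 it was 0.651 for fold, 0.685 for −log10 q, 0.693 for tags and 0.720 for width. At a similar fold, listing went with the local background. Since the fold is the ratio of tags to background, a higher background there also means more tags. The parts of tags and background cannot be told apart in this comparison. Replicate 1 intervals with a fold of 6 to 8 were listed in replicate 2 in 22.6% of cases in the lowest of 4 equal sets by background, at a median of 10 tags, and in 71.6% in the highest, at 22 tags. In replicate 2 the corresponding shares were 70.6% at 14 tags and 93.1% at 30 tags. Summit number showed the same order. In replicate 1, 44.9% of intervals with 1 summit were listed in replicate 2, 82.8% of those with 2 and 91.3% of those with 3. Of the narrowest intervals, 200 bp wide, 15% of the 3090 in replicate 1 and 57.3% of the 1486 in replicate 2 were found in the other list.

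Recurrence in the 6 transfected lists was used as a readout that the choice of regions did not use. Of the both-listed regions, 97.5% were listed in at least 1 transfected library, against 71.3% of replicate 1 only regions and 39.3% of replicate 2 only regions. Both-listed regions were found in 95.7% of cases in siMena11a replicate 1 and in 89.8% in siControl replicate 1, lists of 35472 and 27304 intervals. The shorter siMena replicate 1 list of 14678 intervals held 63.2% of them. The second replicates held 25.3% for siControl (5231 intervals), 13.4% for siMena11a (2832) and 3.53% for siMena (1020). The order followed the lengths of the lists, so these shares do not compare treatments. Both-listed regions had the highest share of the 3 classes in each of the 6 lists. The order of the once-listed classes turned with the replicate number of the transfected library. Replicate 1 only regions were found more often than replicate 2 only regions in the long replicate 1 lists: 63.6% against 33.6% in siMena11a, 46.7% against 16.5% in siControl and 15.2% against 3.64% in siMena. In the short replicate 2 lists they were found less often: 0.847% against 3.82% in siControl, 0.193% against 2.54% in siMena11a and 0.105% against 2.41% in siMena. A share in at least 1 list is therefore set mainly by the replicate 1 lists. What the replicate numbers share across treatments is not stated in the labels, and its part in these shares was not tested. All 6 transfected lists held 540 of the both-listed regions (3.10%), and 442 (2.53%) were in none. When both-listed regions were ordered by the lower of their fold percentiles, the mean number of transfected lists was 2.10 in the weakest of 10 equal sets, 2.60 in the fifth and 4.49 in the strongest.

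At a fold of 6 to 8, both-listed regions were found in at least 1 transfected list more often than once-listed ones. The classes were matched for fold but not for tags or width. Over all folds, replicate 1 summits held a median of 21 tags in both-listed and 11 in replicate 1 only regions. Replicate 2 summits held 19 tags in both-listed and 14 in replicate 2 only regions. Median merged widths were 536 bp in both-listed, 274 bp in replicate 1 only and 265 bp in replicate 2 only regions. Of regions with a replicate 1 fold of 6 to 8, 97.3% of those listed in both were in a transfected list, against 76.0% of those in replicate 1 only. For a replicate 2 fold of 6 to 8, the shares were 97.8% for those listed in both and 39.0% for those in replicate 2 only. The order did not hold in every single list. At a replicate 2 fold of 4 to 6, the siMena replicate 2 list held 0.715% of both-listed and 2.03% of replicate 2 only regions. Between the once-listed classes, the order at a fold of 6 to 8 again turned with the replicate number. The siControl replicate 2 list held 0.706% of replicate 1 only and 2.49% of replicate 2 only regions, and the siMena11a replicate 2 list 0.0963% and 1.16%. At a replicate 1 fold of 12 or more, all 93 replicate 1 only regions were in a transfected list, as were all 1787 both-listed regions. Of the 9 replicate 2 only regions with a fold of 12 or more 3 were, a number too small to set beside them.

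**Figure D5:**
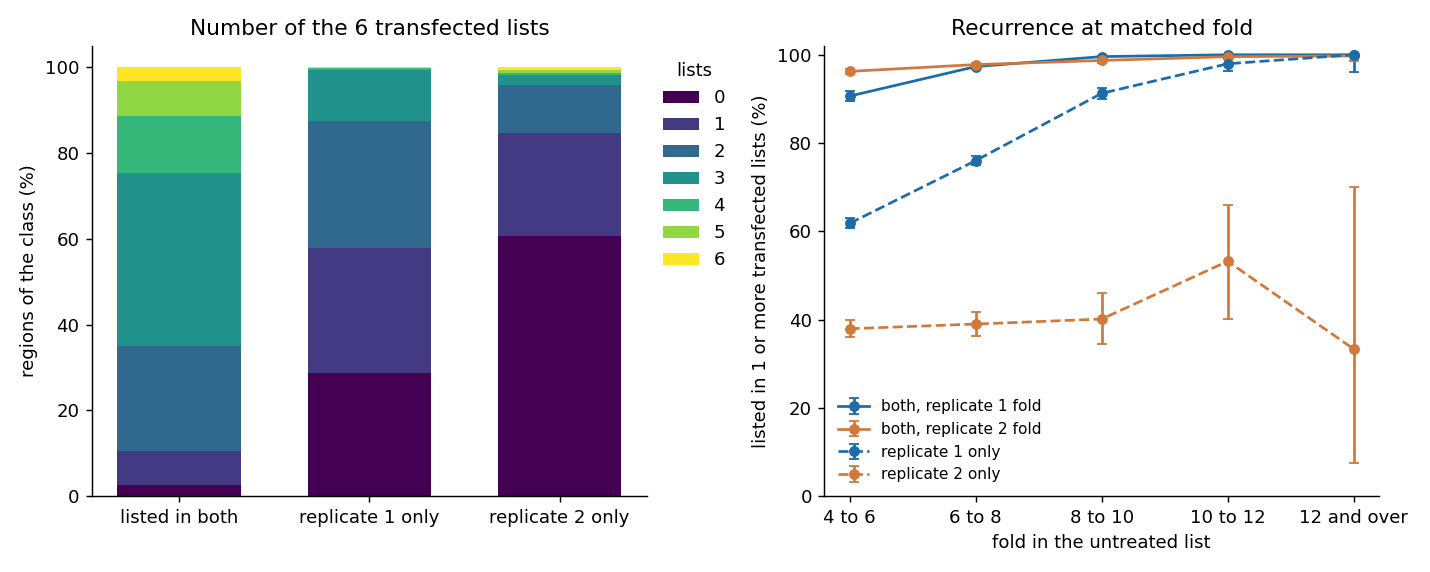
The left panel plots, for regions listed in both replicates, in replicate 1 only and in replicate 2 only, the percentage found in 0 to 6 of the transfected lists. The right panel plots the percentage found in at least 1 transfected list against fold in the untreated list, with 95% exact intervals. Both-listed regions stay above 90% at every fold, replicate 1 only regions reach 100% at a fold of 12 and over, and replicate 2 only regions lie between 33.3% and 53.2%, with the long replicate 1 transfected lists giving most of these shares.

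The strongest regions missing from the other list were looked up in the same transfected lists, of which those of replicate 1 are the long ones. In replicate 1 the first had a fold of 16.2 from 46 tags (chromosome 5, 50522019 to 50522565), the next 15.2 from 49 tags (chromosome 8, 117336959 to 117337445) and the third 14.4 from 29 tags (chromosome 5, 130109490 to 130109815), and 2 to 4 transfected libraries listed each. In replicate 2 the folds were 14.8 from 48 tags (chromosome 3, 27352851 to 27353246), 13.9 from 55 tags (chromosome 12, 72690128 to 72690580) and 13.2 from 34 tags (chromosome 14, 62401053 to 62401485). None of these 3 was in any other list of the series. Among the 1000 strongest regions of each list, 36 of replicate 1 were missing from replicate 2, and all 36 were in a transfected list. Of the 32 of replicate 2 that were missing from replicate 1, 16 were in no other list of the series. At any strength, 28.7% of replicate 1 only regions and 60.7% of replicate 2 only regions were in no transfected list. In all, 2719 of the 21926 regions of replicate 2 and 4919 of the 34561 of replicate 1 were in no other list. For replicate 2 their share was lowest on chromosome 19, 3.07%, and highest on chromosome 4, 16.5%. For replicate 1 it was 10.1% on chromosome 19 and 14.3% on chromosome 4.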

How the data were processed

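ATAC-seq peak lists of 8 H1650 libraries were used, and the authors deposited 1 list for each library. The submitters' processing notes name MACS2 2.2.5, SAMtools 1.7, Bowtie2 2.3.4.2 and FastQC 0.11.5, with build hg19. Not given in the sources used here are read trimming, the treatment of duplicates and any shift of ends for the transposase. Each line gives 1 summit, and peaks were counted as distinct intervals. The score deposited by the authors is 10 times the −log10 q, rounded down. The deposited fold is the ratio of (pileup + 1) to (local background + 1). Both −log10 p and −log10 q are the authors' values, and the lists end at a −log10 q of 2. Folds were set side by side between lists as a description. The depth of a library bears on how many peaks a caller lists.

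The files give no read totals. Pileup in whole tags and local background were recovered from fold and −log10 p by inverting the caller's Poisson formula, to within 0.001 for 100% of rows of both untreated lists. The lowest background of a list, which many rows share, was taken as the genome-wide background. Regions were merged where intervals overlapped or touched. Density was taken per Mb between the first and last listed base of a chromosome over the 8 lists. There is 1 group and no contrast, so no test was made. Intervals of shares are 95% exact Clopper-Pearson intervals and cover counting error only. Correlations are across regions or chromosomes and carry no p. The members, the named regions and the measures were chosen with earlier results of these data known. Regions named on the assembled chromosomes were the 10 strongest by the lower fold percentile, the 5 widest and those with the most summits. Also named were the 5 fullest windows, the 3 longest gaps, the 3 strongest missing from the other list, and the chromosomes of 3 highest and 3 lowest densities. Others are marked as chosen after their values were seen. Chromosomes named for their fold ratio, background or share, and chromosomes 7 and 18, were also chosen after.

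On simulated data, 100% of 2000 pileups were recovered for each list, and merging matched a mask per base in all 20 trials. The simulated pileups were all above the lowest of the lists, 5 tags in replicate 1 and 7 in replicate 2. Recovery at those lowest counts was therefore not simulated. No hg19 sequence or annotation was used here, since the reference tables given were of GRCh38. Coordinates are hg19, counted from 1. Scripts ran in Python 3.11.15 with SciPy 1.17.1, pandas 2.3.3 and numpy 2.4.6, and figures were drawn with matplotlib 3.10.9.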

Additional observations from a re-analysis of the deposited data

How the results depend on the processing

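No paired analysis was possible because the description concerns 1 group, with no contrast and no test. The number of both-listed regions was 17347 with intervals up to 150 bp apart merged, 17443 where 1 bp had to be shared, 14396 where the lists had to share 50% of the region, 14165 at a −log10 q of at least 5, 14567 with lists of equal length and 17372 on chromosomes 1 to 22 and X. Counted as bins of 500 bp it was 31161, since a region spans several bins. The median gap of 66029 bp was 80905 bp with 50% shared, 81933.5 bp at the stricter threshold and 79469.5 bp with equal lists, each of which leaves fewer regions. With replicate 1 or replicate 2 left out, what remains is a single list: 22424 or 34782 intervals, median widths of 348 or 349 bp, median gaps of 49643.5 or 34056 bp, and median folds of 6.15 in replicate 2 or 6.91 in replicate 1. Listing of the strongest 10% in the other replicate, 92.9% for replicate 1 and 94.7% for replicate 2, was 97.5% and 97.7% with strength by −log10 q, 93.6% and 98.4% by width, and 89.5% and 93.1% with the other list at the stricter threshold. The correlation of 0.51 was 0.47 for the median summit, 0.55 for −log10 q and 0.50 on chromosomes 1 to 22 and X. The density of chromosome Y, 0.0844 per Mb, was 0.556 per window with a peak. Of 67 values under an alternative, 48 stayed within the spread between replicates, their interval or 1.5 times the count. Some of these allowances are wide, so the count is no measure of robustness. Chromosome 19 counted among the 48 with 7.11 regions per Mb at the stricter threshold against 9.57, since the lists themselves had 21.1 and 10.5. The 22424 intervals of replicate 2 alone also counted, against 17444 both-listed regions. Correlations counted among the 48 only if equal at 2 decimals. At the genome-wide background the weakest summits held 5 tags in replicate 1 and 7 in replicate 2. Such low counts limit what the absence of a region from a list can show. Why a region was listed once was not tested.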
